A study of Mus musculus with 4 samples.

Results

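The probes described here are the TBP library of designed DNA oligos in which positions 6, 12 and 18 of the printed (listed) strand each held TT, TC, CT, CC or no dipyrimidine. They were found by name, by taking every probe whose name began with TBP_P6 after the number of the replicate spot had been removed. The rule found 125 probes, all combinations of 5 states at 3 positions, of 6126 probe names and 5480 distinct sequences on the array. Probes are named here by their states at positions 6, 12 and 18 in that order, so that N-TC-N held TC at position 12 and nothing at the other positions. There was 1 probe with no filled position (N-N-N), 12 with 1, 48 with 2 and 64 with 3.

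UV light joins neighbouring pyrimidines (T or C) on a DNA strand. A cyclobutane pyrimidine dimer (CPD) links them through a ring of carbon atoms, whereas a 6-4 photoproduct (6-4PP) links carbon 6 of the 5′ base to carbon 4 of the 3′ base. TBP, the TATA-box-binding protein, is a general transcription factor that binds alternating T and A sequence in promoters and bends it sharply.

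The study placed 2 mouse antibodies, one raised against CPD and one against 6-4PP, on DNA arrays that had or had not been irradiated. The 4 groups were anti-CPD on the UV array, anti-CPD on the non-UV array, anti-6-4PP on the UV array and anti-6-4PP on the non-UV array, with 1 array each. The anti-CPD antibody was diluted 1 in 400 and the anti-6-4PP antibody 1 in 80, per the labels. UV dose, scanner settings and whether or how the probes were made double-stranded are not stated there. Both 6-4PP arrays have a title that states the opposite condition from the condition field. The field, which the names of the deposited files follow, was used here, and each statement about a 6-4PP condition rests on it.

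The probe with no dipyrimidine and the probes with TC at 1 position are printed first because they show where the positions lie. Capitals mark the dipyrimidine, and each sequence is the listed strand, 5′ to 3′.
TBP N-N-N: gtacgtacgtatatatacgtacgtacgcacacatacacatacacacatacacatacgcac
TBP TC-N-N: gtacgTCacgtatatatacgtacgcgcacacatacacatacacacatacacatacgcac
TBP N-TC-N: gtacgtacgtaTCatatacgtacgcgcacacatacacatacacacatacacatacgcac
TBP N-N-TC: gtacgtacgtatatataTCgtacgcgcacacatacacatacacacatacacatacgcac

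The probes with 1 type at all positions follow because their signals span nearly the whole range of the library.
TBP TT-TT-TT: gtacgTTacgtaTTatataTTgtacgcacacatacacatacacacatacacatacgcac
TBP TC-TC-TC: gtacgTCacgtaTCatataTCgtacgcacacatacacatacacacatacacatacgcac
TBP CT-CT-CT: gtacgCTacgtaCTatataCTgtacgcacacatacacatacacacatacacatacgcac
TBP CC-CC-CC: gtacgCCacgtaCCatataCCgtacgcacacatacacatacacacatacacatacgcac

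Position 12 lay inside the alternating run of t and a, and position 18 lay at its 3′ end. The dipyrimidine at position 6 stood between G and A, that at position 12 between A and A, and that at position 18 between A and G. Position and flanking bases therefore changed together and cannot be told apart within these probes. A dipyrimidine took the place of a single base, and the stretch before the shared 3′ end of 35 bases was shortened, so that 76 probes had 59 bases and 49 had 60. All 125 probes held as many dipyrimidines on the listed strand as filled positions, and 0 held one on the opposite strand. GC content ranged between 37.3% and 48.3%.

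Each probe was printed at 10 spots per array. Values are the median fluorescence of the Alexa label over unflagged spots, in the scanner's arbitrary units, and ± gives the SD over those spots. No flagged spot lay among the 1250 spots of these probes on either CPD array, while 14 were flagged on the UV 6-4PP array and 24 on the non-UV 6-4PP array. The median spot SD on the log2 scale was 0.45 on the UV CPD array, 0.22 on the non-UV CPD array, 0.24 on the UV 6-4PP array and 0.15 on the non-UV 6-4PP array. The scanner ceiling of 65535 was reached on the UV 6-4PP array by 125 spots and by the median of 11 probes, and values there are lower bounds. The UV CPD array was uneven, with a local median between 1111 and 7868 around these spots. The deposited spatially adjusted intensity reduced its median spot SD to 0.33. It multiplied the value of a probe there by between 0.73 (CT-TC-N) and 2.07 (CT-TT-CT). Adjusted values are given for some, not all, of the calls and counts that it changed.

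Irradiation was compared first. On the UV CPD array the 125 probes ranged between 1092.5 and 22435 with a median of 6025.5, against 27 to 76 with a median of 34 on the non-UV CPD array. With anti-6-4PP they ranged between 4671 and 65535 with a median of 21418.5 on the UV array, against 51.5 to 75.5 on the non-UV array, where the median was 60. For both antibodies the dimmest probe on the UV array was above the brightest on the non-UV array. The median difference, UV minus non-UV, was 7.43 on the log2 scale for CPD and 8.35 for 6-4PP. All 125 probes were brighter on the UV array with each antibody, as were 100 percent of the 5480 library sequences, so the direction was not particular to these probes. With 1 array per group there is no replicate check, and a difference in scanner gain between arrays cannot be told apart from irradiation.

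N-N-N gave the level without a dipyrimidine. It measured 1640.5 ± 1038.86 on the UV CPD array against 33 on the non-UV CPD array, and 4671 ± 2334.85 on the UV 6-4PP array against 52 on the non-UV 6-4PP array (SD, 10 spots). It was the dimmest of the 125 probes on the UV 6-4PP array and, on the UV CPD array, stood above only N-CC-N at 1092.5 and CC-CC-N at 1338. After spatial adjustment CC-N-N was the dimmest there at 1750.06, N-CC-N measured 1771.51, N-N-N 1869.84 and CC-CC-N 1931.93. On the UV 6-4PP array the adjusted value of CT-N-N was the lowest at 4659.76, below 5142.55 for N-N-N. The same sequence was printed under 3 further names, which measured 2570, 1969.5 and 2263 on the UV CPD array and 4163, 4661 and 4441 on the UV 6-4PP array. On the UV arrays none of these 3 passed an exact two-sided permutation test over spots against N-N-N, with unadjusted p between 0.177 and 0.292 on the UV CPD array and between 0.448 and 0.971 on the UV 6-4PP array. On the non-UV CPD array they measured 27, 29.5 and 30.5, all below N-N-N at 33. The first differed from N-N-N there at an unadjusted p of 0.0456 (exact permutation test). After spatial adjustment they measured 30.4038, 29.9117 and 30.5441 on that array, against 30.5441 for N-N-N.

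A probe was called above background when it exceeded the 95th percentile of the 160 library sequences without a dipyrimidine on the same array. With CPD, 90 of 125 probes (72%) passed this level, 3651.62 on the UV array, against 60.8 percent of the library. With 6-4PP, 119 of 125 (95.2%) passed the level of 6701.17, against 89 percent of the library. By 0, 1, 2 and 3 filled positions, the numbers above background on the UV arrays were 0, 4, 31 and 55 with CPD and 0, 8, 47 and 64 with 6-4PP. The first of these counts is for N-N-N, itself a sequence of the kind that set the level. Those with 1 filled position were the 3 TT probes and N-TC-N with CPD, and the TT and TC probes at every position with CC at positions 12 and 18 with 6-4PP. On the non-UV arrays the levels were 31 for CPD and 61.025 for 6-4PP. There 92 of 125 probes passed for CPD (36 percent of the library) and 50 of 125 for 6-4PP (23.9 percent of the library). By 0, 1, 2 and 3 filled positions these numbered 1, 4, 31 and 56 with CPD and 0, 2, 11 and 37 with 6-4PP. The CPD counts by filled positions were thus nearly the same on the UV and the non-UV array, but the probes were not all the same. N-TT-N and N-TC-N passed on the UV CPD array and lay below 31 on the non-UV CPD array, N-TC-N at 28. The count of 1 without a filled position is N-N-N at 33, whose sequence measured 27, 29.5 and 30.5 there under its 3 further names.

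With the anti-CPD antibody, TT stood apart from the other types. TT-N-N measured 5149.5 ± 1090.51 on the UV CPD array and 34.5 on the non-UV CPD array. N-TT-N measured 7654 ± 2302.45 and 30.5 on these arrays, and N-N-TT 10207 ± 1850.5 and 42.5 (SD, 10 spots). Their mean log2 spot intensities exceeded that of N-N-N on the UV array by 1.64, 2.30 and 2.61, each with an adjusted p of 0.000104 in an exact two-sided permutation test over spots. P-values of this family were adjusted over 48 tests, and the smallest p such a test gave was 1.08e-05. They compare spots of 1 array, not conditions or irradiations.

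The other 9 single probes lay between 1092.5 and 4017 on the UV CPD array and none passed the exact permutation test against N-N-N at an adjusted p under 0.05. TC-N-N measured 1723.5 ± 1105.54, N-TC-N 4017 ± 1984.01 and N-N-TC 2034 ± 1473.22. CT-N-N measured 2443.5, N-CT-N 2145 and N-N-CT 2071, while CC-N-N measured 1656.5, N-CC-N 1092.5 and N-N-CC 2362.5. On the non-UV CPD array these 9 probes lay between 28 and 32. With the spatially adjusted intensity 7 of 12 single probes passed in place of 3, the added probes being N-TC-N, N-N-TC, N-CT-N and N-N-CT. N-N-TC measured 3507.11 after adjustment, against 1869.84 for N-N-N. At each position the TT probe was brighter than the TC probe, by 1.40 at position 6 (adjusted p = 0.000281, exact permutation test), by 1.31 at position 12 (adjusted p = 0.000422, exact permutation test) and by 2.07 at position 18 (adjusted p = 6.5e-05, exact permutation test).

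The anti-6-4PP antibody ordered the types differently. TC-N-N measured 10266 ± 1317.83 on the UV 6-4PP array and 64.5 on the non-UV 6-4PP array. N-TC-N measured 23646 ± 6759.64 and 60.5 on these arrays, and N-N-TC 23627 ± 3175.25 (SD, 9 spots) and 59.5. The TT probes were dimmer at 8054.5 ± 1766.69 for TT-N-N, 15215 ± 1650.49 for N-TT-N and 13440 ± 2023.42 for N-N-TT on the UV array, with 60, 59 and 58.5 on the non-UV array. TT fell below TC by 0.27, 0.59 and 0.74 on the log2 scale at positions 6, 12 and 18, with adjusted p of 0.0249, 0.00174 and 6.5e-05 in exact permutation tests. At position 6 the call was lost with the adjusted intensity (difference -0.19, adjusted p = 0.0655, exact permutation test). At position 18 it was lost with flagged spots kept (difference -0.30, adjusted p = 0.696, exact permutation test), where N-N-TC gained 1 flagged spot.

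Among the other single probes on the UV 6-4PP array, N-CC-N measured 8709 ± 629.687 and N-N-CC 8502.5 ± 2188.74, both brighter than N-N-N, by 0.93 (adjusted p = 0.000693, exact permutation test) and 0.91 (adjusted p = 0.0052, exact permutation test). CC-N-N measured 6238 ± 2519.32 and did not pass (adjusted p = 0.126, exact permutation test). CT-N-N at 4761, N-CT-N at 5522.5 and N-N-CT at 5810 did not pass against N-N-N, with adjusted p of 0.798, 0.315 and 0.503 in exact permutation tests. In all, 8 of 12 single probes were brighter than N-N-N on this array. On the non-UV 6-4PP array 0 of 12 passed by the exact permutation test (1 at an unadjusted p under 0.05), and on the non-UV CPD array 1 did, N-N-TT, by 0.46 (adjusted p = 0.0103, exact permutation test).

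The full design allowed each dipyrimidine to be set against N with the other positions held equal, in 25 matched pairs per type and position. The 2 probes of such a pair also differed in length, 59 against 60 bases. TT was brighter than N in 25 of 25 pairs at every position on the UV CPD array. Its median difference was 0.89 at position 6, 1.62 at position 12 and 1.69 at position 18. TC was brighter in 19, 22 and 23 of 25 pairs at positions 6, 12 and 18, CT in 23, 21 and 22, and CC in 16, 14 and 23. With the adjusted intensity CC at position 18 was brighter in 17 of 25 pairs, by a median of 0.13 in place of 0.28. With 6-4PP, TC was brighter than N on the UV array in 24, 25 and 25 of 25 pairs, with medians of 0.69, 2.11 and 1.84, and the pair that was not brighter was tied at the ceiling. CC was brighter in 23, 25 and 25 pairs, and CT in 19, 25 and 23. The pairs share probes and an array, so these counts are descriptions.

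A least-squares fit of the log2 intensity with 1 term for each type and position summarised these differences, its standard errors being taken over the 125 probes. For the UV CPD array TT added 1.13, 1.58 and 1.71 at positions 6, 12 and 18, TC 0.26, 0.54 and 0.71, CT 0.46, 0.42 and 0.45, and CC 0.06, 0.04 and 0.31 (SE 0.093 each). With the adjusted intensity the effect of CC at position 18 was 0.13 (SE 0.069). For the UV 6-4PP array TC added 0.65, 1.98 and 1.73, TT 0.54, 1.36 and 1.06, CC 0.30, 0.68 and 0.56, and CT 0.15, 0.30 and 0.24 (SE 0.056 each). Averaged over positions, the order with CPD was TT at 1.47, TC at 0.50, CT at 0.44 and CC at 0.14, where TC and CT lay within 1 SE of a position effect of each other. With 6-4PP it was TC at 1.45, TT at 0.99, CC at 0.52 and CT at 0.23. The share of the variance between probes that the fit accounted for (R squared) was 0.90 on the UV CPD array and 0.96 on the UV 6-4PP array.

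The order of CT and CC was thus turned round between the antibodies. In matched pairs CT was brighter than CC in 21, 21 and 18 of 25 at positions 6, 12 and 18 on the UV CPD array. With 6-4PP, CT was dimmer than CC in 21, 24 and 25 of 25 on the UV array. TT was brighter than TC in 25 of 25 pairs at each position on the UV CPD array, by medians of 0.87, 0.99 and 0.87. With 6-4PP, TT was brighter than TC in 4, 0 and 0 pairs and dimmer in 18, 21 and 23, with the rest tied at the ceiling.

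Position 6, the site with G on its 5′ side, gave the smallest fitted effects of TT and TC with both antibodies. With CPD, N-TT-N exceeded TT-N-N on the UV array by 0.66 (adjusted p = 0.00615, exact permutation test, 24 tests) and N-N-TT exceeded TT-N-N by 0.97 (adjusted p = 0.00013, exact permutation test), or by 0.54 with the adjusted intensity (adjusted p = 0.0377, exact permutation test). N-TT-N against N-N-TT did not pass (difference -0.31, adjusted p = 0.159, exact permutation test). With 6-4PP, N-TC-N and N-N-TC exceeded TC-N-N on the UV array by 1.21 and 1.14, and N-TT-N exceeded TT-N-N by 0.90, each with an adjusted p of 0.00013 in an exact permutation test. N-N-TT exceeded TT-N-N by 0.68 (adjusted p = 0.00026, exact permutation test). With flagged spots kept, which adds 1 spot to N-TT-N and 1 to N-N-TC, N-TT-N against TT-N-N (difference 0.48, adjusted p = 0.475) and N-N-TC against TC-N-N (difference 0.71, adjusted p = 0.243) did not pass the exact permutation test. The difference between N-TC-N and N-N-TC was 0.07 (adjusted p = 0.761, exact permutation test), and that between N-TT-N and N-N-TT 0.22 (adjusted p = 0.0571, exact permutation test).

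For CT and CC, 1 position comparison on the UV arrays passed with unadjusted intensity: N-CC-N lay below N-N-CC on the UV CPD array by 1.11 on the log2 scale (adjusted p = 0.00627, exact permutation test). The spots of N-CC-N had a local median of 2644.25 there, against 5228.75 for N-N-CC. With the adjusted intensity the difference was -0.26 (adjusted p = 0.013, exact permutation test), and N-N-CC also exceeded CC-N-N by 0.27 (adjusted p = 0.032, exact permutation test). The adjusted intensity also gave 3 such calls on the UV 6-4PP array. N-CT-N exceeded CT-N-N by 0.33, N-CC-N exceeded CC-N-N by 0.45 and N-N-CC exceeded CC-N-N by 0.44 (adjusted p = 0.0377, 0.013 and 0.0196, exact permutation tests).

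The p53 and MITF libraries carried the same design on other backbones and placed the positions in other flanks. Over the 9 sites of the 3 backbones, the 6-4PP effect of TC was 0.58 to 0.80 at the 4 sites between G and A, 1.54 to 1.73 at the 3 sites between A and G, and 1.82 to 1.98 at the 2 sites between A and A. The TBP sites gave 0.65, 1.73 and 1.98 in these flanks. These fits include 11 TBP and 4 p53 probes at the ceiling. Without them the ranges were 0.60 to 0.80, 1.56 to 1.92 and 1.84 to 2.18, so those of the sites between A and G and between A and A overlapped. The 6-4PP effect of TT, with all probes, was 0.37 to 0.54, 0.81 to 1.06 and 1.26 to 1.36. The sites between G and A were position 6 in TBP, position 12 in p53, and positions 6 and 18 in MITF. For the CPD effect of TT the ranges met, at 0.76 to 1.13, 1.05 to 1.71 and 1.23 to 1.58 for the same flanks. With so few sites these ranges are descriptions, and the rest of each backbone differed too.

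The signal on the UV CPD array followed the number of TT steps with little overlap. There the 64 probes without TT ranged between 1092.5 and 6475.5 with a median of 3532. The 48 probes with 1 TT ranged between 5149.5 and 12638 with a median of 8902.5, and the 12 with 2 TT between 11402 and 21816 with a median of 15723.5. TT-TT-TT was the brightest at 22435 ± 6124.44 (SD, 10 spots), or 32675.6 after spatial adjustment. The 5 probes with TT at both position 12 and position 18 were the brightest of the 125, between 16383 and 22435, and the highest of the other 120 was TT-TT-CT at 15762. After spatial adjustment the classes with 0, 1 and 2 TT ranged between 1750.06 and 6006.15, 5734.45 and 16225.3, and 11662.4 and 27886.2. N-TT-TT then measured 15674.5 and lay below TT-CT-TT at 18609.7, CC-TC-TT at 16225.3, TT-TT-CT at 16109.2, TC-TC-TT at 16009.1 and CT-TT-CT at 15945.9. The rule for named probes gave CT-TT-TT at 21816 and CC-TT-TT at 18994.5 beside TT-TT-TT.

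The same order appeared on the non-UV CPD array at a far lower level. By 0, 1, 2 and 3 TT steps the medians there were 31.5, 39, 50.25 and 76, with ranges of 27 to 37.5, 30 to 49.5 and 40.5 to 61.5 for 0, 1 and 2. The fitted TT effect on that array was 0.21, 0.41 and 0.57 at positions 6, 12 and 18 (SE 0.030). Over the 125 probes the log2 intensities of the UV and non-UV CPD arrays had a Pearson r of 0.82 and a Spearman rho of 0.85. The corresponding values for the 6-4PP arrays were 0.32 and 0.31, and on the non-UV 6-4PP array the largest fitted effect was 0.18, of TT at position 18. The arrays carry the same probes, and the Cy3 column that could report the amount of DNA held 1 at every spot, so the part of the DNA amount in these correlations was not tested.

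The 6-4PP signal followed TC at positions 12 and 18. The 11 probes at the ceiling on the UV 6-4PP array all had TC at one of these positions and TT or TC at the other. There were 15 probes of that kind, and the remaining 4 measured between 48933.5 and 64229.5. Among the other 110 probes 0 were at the ceiling, and the highest was TC-TC-CC at 64451.5. The brightest below the ceiling after it were CT-TC-TT at 64229.5 and CC-TC-TT at 64165, which were named after the tie at the ceiling had been seen. TC-TC-TC had 9 of 10 spots at the ceiling and N-TC-TC had 10 of 10, whereas TC-N-TC measured 30214 and TC-TC-N 39863.5.

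The probes with 1 type at every position showed the contrast between antibodies. TC-TC-TC measured 4035 ± 2021.62 on the UV CPD array and 34 on the non-UV CPD array, and at least 65535 on the UV 6-4PP array and 64.5 on the non-UV 6-4PP array. TT-TT-TT reached 48983 ± 9005.22 on the UV 6-4PP array, against 69.5 on the non-UV 6-4PP array. CT-CT-CT measured 5547.5 ± 1565.2 and 35.5 on the UV and non-UV CPD arrays, and 8869 ± 2475.45 and 59 on the UV and non-UV 6-4PP arrays. CC-CC-CC measured 1922 ± 878 and 27.5 on the UV and non-UV CPD arrays, and 17057 ± 1063.92 and 66 on the UV and non-UV 6-4PP arrays. CC-CC-CC was the dimmest of these with CPD and stood above CT-CT-CT with 6-4PP.

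Probes were also ranked on each UV array. CC-TC-CC stood 89 ranks higher with 6-4PP than with CPD, at 47396.5 on the UV 6-4PP array and 2391.5 on the UV CPD array. CC-TC-N stood 87 ranks higher, at 38043 and 2156 on these arrays, and TC-TC-TC followed, whose rank with 6-4PP is tied among the 11 probes at the ceiling. In the other direction CT-CT-TT stood 68 ranks higher with CPD, at 15162 on the UV 6-4PP array and 12638 on the UV CPD array, followed by N-N-TT by 64 ranks and TT-N-TT by 60. Over the 125 probes the log2 intensities of the 2 UV arrays had a Pearson r of 0.51 and a Spearman rho of 0.50.

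Median signal on the UV arrays increased with the number of filled positions. The medians for 0, 1, 2 and 3 filled positions were 1640.5, 2253.75, 4900.75 and 8256.75 on the UV CPD array, and on the UV 6-4PP array 4671, 8605.75, 16300.2 and 30842. The classes overlapped. Probes with 1, 2 and 3 filled positions ranged between 1092.5 and 10207, 1338 and 18560.5, and 1922 and 22435 on the UV CPD array. The ranges were 4761 to 23646, 6364 to 65535 and 8869 to 65535 on the UV 6-4PP array. The medians on the non-UV CPD array were 33, 30.25, 32.25 and 38.25, and on the non-UV 6-4PP array 52, 59, 59.25 and 62. The value of 33 is that of N-N-N alone, whose sequence measured 27, 29.5 and 30.5 there under its 3 further names.

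On the UV CPD array the median step that TT added was smaller with both other positions filled than with 1 filled. TT at position 18 was brighter than N by 2.64 with both other positions empty, by a median of 2.15 with 1 other filled and by a median of 1.47 with both filled. The series for TT at position 12 was 2.22, 2.04 and 1.30, and for TT at position 6 it was 1.65, 1.59 and 0.84. With the adjusted intensity the series were 2.35, 1.77 and 1.56 for position 18, 2.33, 1.72 and 1.46 for position 12, and 1.91, 1.06 and 1.01 for position 6. The first value of each series is 1 pair against N-N-N, the dimmest printing of its sequence on that array. N-N-N measured 1640.5 there, against 2570, 1969.5 and 2263 under its 3 further names. After adjustment it measured 1869.84, against 2253.21, 2262.28 and 2120.9. The steps were not computed against those printings, so the fall from the first value was not tested. With 6-4PP the steps of TC changed less, at 2.34, 2.07 and 2.08 for position 12, at 2.34, 1.92 and 1.73 for position 18 and at 1.14, 0.73 and 0.61 for position 6, where pairs at the ceiling give lower bounds or ties.

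Each probe with 2 or 3 filled positions was then set against what the single probes gave, summed either on the log2 scale or as intensities above N-N-N. TT-TT-TT measured 22435 on the UV CPD array, against 149485.5 from the sum of logs and 19729.5 from the sum of intensities. With 6-4PP it measured 48983 on the UV array, against 75490.1 and 27367.5 from these sums. Of the 64 probes with 3 filled positions, 58 lay below the sum of logs on the UV 6-4PP array and 63 lay above the sum of intensities, with medians of -0.48 and 0.35 on the log2 scale. For the 54 of them below the ceiling the medians were -0.39 and 0.31, so the signal lay between the 2 sums there. Of the 48 probes with 2 filled positions, 40 lay below the sum of logs and 34 above the sum of intensities, with medians of -0.18 and 0.098.

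With CPD the result depended on the intensity column. With unadjusted intensity 36 of 64 probes with 3 filled positions lay below the sum of logs, by a median of -0.067, and 55 lay above the sum of intensities, by a median of 0.24. With the adjusted intensity 54 of 64 lay below the sum of logs, by a median of -0.49, and 36 above the sum of intensities, by a median of 0.019. Of the 48 probes with 2 filled positions, 20 lay below the sum of logs (median 0.07) and 33 above the sum of intensities (median 0.21) with unadjusted intensity. With the adjusted intensity 40 of these 48 lay below the sum of logs (median -0.25) and 37 below the sum of intensities (median -0.12). All these values share N-N-N and the 12 single probes, so no test was made of them. On the UV CPD array N-N-N was the dimmest printing of its sequence, at 1640.5 unadjusted and 1869.84 adjusted. With a brighter printing in its place both sums would be lower, and fewer or as many probes would lie below them. The sums were not computed from its 3 further names.

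Against the same combinations on the other backbones, most TBP probes were brighter with 6-4PP. On the UV array the 125 TBP probes had a median of 21418.5, against 17760 for p53 and 12545.5 for MITF. TBP was brighter than p53 in 81 of 125 combinations (median difference 0.29) and brighter than MITF in 123 of 125 (median difference 0.72). It was dimmer than p53 in 42, with differences between -1.17 and 1.78, and 4 p53 probes were at the ceiling. With CPD the medians were 6025.5 for TBP, 5811.5 for p53 and 5081 for MITF. There TBP was brighter than p53 in 59 of 125 combinations (median difference -0.012) and brighter than MITF in 97 (median difference 0.41). On the non-UV CPD array TBP was brighter than p53 in 102 of 125 combinations and brighter than MITF in 103, with medians of 34 for TBP and 30.5 for both others. On the non-UV 6-4PP array TBP was brighter than p53 in 125 of 125 combinations, with medians of 60 and 41, and brighter than MITF in 78 of 125, with medians of 60 and 58.

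The probes with TC at every position differ between backbones only outside the dipyrimidines, as their sequences show.
TBP TC-TC-TC: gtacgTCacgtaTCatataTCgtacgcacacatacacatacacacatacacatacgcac
p53 TC-TC-TC: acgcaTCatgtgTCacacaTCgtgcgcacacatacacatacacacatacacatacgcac
MITF TC-TC-TC: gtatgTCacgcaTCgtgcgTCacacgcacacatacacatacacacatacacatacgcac

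Replicate spots were compared for N-N-N and the 4 probes with 1 type at every position, with adjustment over 20 exact permutation tests. TC-TC-TC was at the ceiling in TBP and in p53 and could not be ranked between them, whereas MITF measured 39836.5 on the UV 6-4PP array, below TBP by at least 0.65 on the log2 scale (adjusted p = 0.000397, exact permutation test). TT-TT-TT on the UV 6-4PP array measured 48983 in TBP, against 30372 in p53 (difference 0.71, adjusted p = 0.00013, exact permutation test) and 19723.5 in MITF (difference 1.24, adjusted p = 5.41e-05, exact permutation test). CC-CC-CC measured 17057 in TBP, against 13401.5 in p53 (difference 0.38) and 10562 in MITF (difference 0.71), both with an adjusted p of 5.41e-05 in exact permutation tests. CT-CT-CT and N-N-N did not pass on the UV 6-4PP array.

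On the UV CPD array TT-TT-TT measured 22435 in TBP, against 18210.5 in p53 (difference 0.49, adjusted p = 0.00798, exact permutation test) and 14752.5 in MITF (difference 0.80, adjusted p = 5.41e-05, exact permutation test). The other 8 comparisons on that array did not pass. With the adjusted intensity TBP was brighter in 3 and dimmer in 4 of the 10 comparisons on the UV CPD array, CC-CC-CC against MITF being the added brighter one (difference 0.45, adjusted p = 0.00377, exact permutation test). The dimmer ones were N-N-N against p53 (difference -0.72, adjusted p = 0.00139, exact permutation test) and against MITF (difference -0.30, adjusted p = 0.0427, exact permutation test), and TC-TC-TC and CT-CT-CT against p53 (differences -0.25 and -0.49, adjusted p = 0.0204 and 0.0474, exact permutation tests). The TBP N-N-N sequence under its 3 further names measured 2253.21, 2262.28 and 2120.9 after adjustment on this array, against 1869.84 for N-N-N. Those spots were not compared with the other backbones, so the N-N-N calls rest on the dimmest printing of that sequence.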

How the data were processed

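Fluorescence intensity of the Alexa label, linear and per spot, was deposited by the authors for each array, per the file headers. The deposited columns also held that intensity with flagged spots removed, a local median and a spatially adjusted intensity. Tested on the files, the adjusted intensity equalled the unflagged intensity times the array median over the local median at 100% of library spots. Cy3 was 1 throughout, so no correction for DNA amount was possible. Of scanning and spot extraction, nothing is given in the sources used here.

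The median unflagged intensity of 10 spots per probe was used, with adjusted intensity as an alternative. The log2 medians were fitted by least squares on 12 terms (type by position, 112 residual degrees of freedom). Spots of 2 probes on 1 array were compared by an exact two-sided permutation test of mean log2 intensity, with Benjamini-Hochberg adjustment within each of 4 families (48, 24, 6 and 20 tests) and a threshold of 0.05. Spots of 1 array are technical replicates, and no test was made between conditions. Python 3.11.15, numpy 2.4.6, pandas 2.3.3 and scipy 1.17.1 were used, and the fit was tested on simulated data. The p53 and MITF libraries held 125 probes each.

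Members, lists and tests were chosen with earlier results of these data known. Named probes were N-N-N, the 12 with 1 filled position, the 4 with 1 type at every position, the 3 brightest and 3 dimmest per UV array and the 3 per direction that differed most in rank. Classes by number of TT and by states at positions 12 and 18 were added after the values had been seen.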

Additional observations from a re-analysis of the deposited data

How the results depend on the processing

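No paired analysis was possible because each group held 1 array. The alternatives tried were spatially adjusted intensity, averaging spots, keeping flagged spots, UV minus non-UV, linear intensity, a stricter background, the 6-4PP titles and leaving out probes at the ceiling (0 with CPD). A term for probe length, and flank effects without probes at the ceiling, were added after seeing the data. The 24 summary results gave 106 alternative values, of which 96 moved by less than the spread between spots (counts by less than 1.5 times) and the others are given here. Among those 96, the CPD departure from the sum of logs changed sign within that spread, for 2 filled positions at 0.07 against -0.25 with the adjusted intensity, and for 3 at -0.067 against 0.24 from the sum of intensities. Of 132 alternatives for the 24 position effects 0 changed sign, and 1 moved by more than that spread, the CPD effect of TT at position 18 (1.14 as UV minus non-UV). As UV minus non-UV the CPD effect of TT was 0.91 at position 6 and 1.18 at position 12, so positions 12 and 18 changed order. Its mean over positions was then 1.08 in place of 1.47.

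For CPD, the difference between probes with 3 and 1 filled positions was 1.87, against 1.42 as UV minus non-UV and 1.27 on linear means. The count of single probes brighter than N-N-N was 3, against 7 with the adjusted intensity. For 6-4PP, the difference between 3 and 1 filled positions was 1.84, against 1.58 without probes at the ceiling. Set against the sum of intensities, the 6-4PP departures were 0.098 for 2 and 0.35 for 3 filled positions, of opposite sign to those from the sum of logs. By the titles of the 6-4PP arrays the median UV minus non-UV difference was -8.35, and the mean effects were 0.091 for TT, 0.042 for TC and 0.051 for CC. The cause of the label conflict was not tested.

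Calls between positions on the UV 6-4PP array numbered 4 of 12, against 8 with the adjusted intensity and 2 with flagged spots kept, where TT against TC passed at 2 of 3 positions. On the UV CPD array they numbered 2 brighter and 1 dimmer, against 5 and 1 with the adjusted intensity. Backbone calls on the UV CPD array were 2 brighter and 0 dimmer, against 3 and 4. The causes were not tested. The ceiling limits the 6-4PP values, and uneven signal across the UV CPD array limits dim and bright probes there.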
